A study of Mus musculus with 12 samples.

Results

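The last 30 min of a 4-thiouridine labelling series in mouse fibroblasts were examined by comparing the 120 min with the 90 min libraries. Cells of the immortalised mouse fibroblast line NIH-3T3, of wild-type genotype, received 4-thiouridine (4sU) at 800 µM for 90 or 120 min, with 2 libraries (replicates A and B) for each time. These 4 libraries were chosen by their labelled time from the 12 of the series. The unlabelled libraries were not used. The 15, 30 and 60 min libraries helped to estimate the spread and to select genes for testing, and gave earlier values of the genes described. The 30 and 60 min libraries were also compared over the preceding steps, and the 60 min libraries also entered the test of labelling. Every cell of both groups had thus been exposed to 4sU, and the line stands for fibroblasts in culture only. The series title gives the purpose of the experiment as measuring how the length of labelling biases quantification.

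Cells take up 4sU and build it into RNA in place of uridine, so only RNA made after its addition carries the label. In SLAM-seq, iodoacetamide alkylates this 4sU, the sequencer then reads C at its place, and such conversions serve to estimate the new-to-total ratio (NTR), the labelled share of each gene's RNA. Transcripts of regulatory genes such as immediate early genes are typically short-lived, and their NTR soon reaches its upper limit, whereas mRNAs for ribosomal and respiratory chain proteins are long-lived and their NTR climbs slowly.

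The table held 17419 genes. Between 10506601 (90 min A) and 13671419 reads (120 min B) were assigned to genes in each of the 4 libraries, and 8999 genes had a mean count of at least 100. Over these genes the SD of the log2 difference between replicates A and B was 0.121 at 90 min and 0.111 at 120 min. The fibroblast markers set for the comparison were all measured (12 of 12), with a summed level between 20700 and 22400 CPM (read counts scaled to a common library total, with TMM factors), whereas epithelial markers gave between 0 and 11 reads and endothelial markers between 10 and 18 reads per library. Blood cell markers gave between 112 and 134 reads. Muscle and fat markers gave 52 and 47 reads at 90 min and 75 and 93 reads at 120 min, and liver-secreted proteins, a list added after the values were seen, 4 and 5 reads and then 64 and 119. Both of these lists were higher in the 120 min than in the 90 min libraries. The muscle and fat markers were at 5.0 and 4.51 CPM at 90 min and 6.94 and 6.99 CPM at 120 min. In the earlier libraries they were between 4.02 and 6.67 CPM. The part of both lists in the results was not tested. The labels do not say that A and B came from separate cultures, so p-values measure only the spread between these libraries. Levels are shares of a library, and in bulk RNA fewer cells with a transcript and less of it per cell cannot be told apart.

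The median NTR of the 8999 genes was 0.252 and 0.233 in the 90 min libraries and 0.355 and 0.347 in the 120 min libraries. The 2 groups did not overlap, and their means were 0.243 ± 0.0139 and 0.351 ± 0.00566 (SD, n = 2 each), although 2 against 2 libraries cannot give an exact two-sided permutation p below 0.333. The median width of the 90% interval of a gene's NTR was between 0.0806 and 0.0848 in these libraries, so differences of that size in a single gene and library are within its estimation error. To ask which genes were labelled faster or slower in the later window, the NTR was converted into an apparent labelling rate, -ln(1-NTR) divided by time, and each library was centred on its median. With limma, 0 of 8516 genes (0.0%) differed in this rate between 120 and 90 min, and 917 had an unadjusted p below 0.05. This does not show that rates were equal, since the estimation error of the NTR makes differences in rate hard to detect. In simulated data with 50 genes changed at each size, the same test recovered 1 at a log2 change of 0.3. It recovered 8 at 0.5 and 34 at 1.0, so changes of these sizes could be missed. Without centring, the median log2 rate was 0.236 higher at 120 min, and the apparent half-life, which takes labelling and decay to be constant, had a median of 223.9 and 246.6 min in the 90 min libraries and of 200.5 and 205.2 min in the 120 min libraries.

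Read counts did change. Of 11526 genes tested with edgeR, 444 (3.85%) passed an adjusted p of 0.05, 233 of them higher at 120 min (2.02%) and 211 lower (1.83%). The changes were small. The median log2 fold change was 0.17 among the higher genes, a 1.12-fold difference, and -0.22 among the lower genes, a ratio of 0.86. Nearly all called genes were well covered, since 440 had a mean count of at least 100. In all 440 the CPM ranges of the 90 and 120 min libraries did not overlap, as they also did not in 47.0% of all genes tested. Scaling by library size alone gave a similar total of 449 genes with another split, 122 higher and 327 lower. Calls also depended on single libraries: 128 genes were called without 90 min A, 159 without 90 min B, 240 without 120 min A and 56 without 120 min B, and 33 were called in all 4 of these fits.

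The same model gave fewer calls for the preceding steps of equal length. Between 60 and 90 min 20 genes passed (0.174%), and between 30 and 60 min 23 genes passed (0.2%). When the 90 to 120 min change of each gene was tested against its 60 to 90 min change, a contrast added after the data had been seen, 0 genes passed with edgeR and 550 had an unadjusted p below 0.05. A larger change in the last step was therefore not shown for any single gene. Both steps share the 90 min libraries.

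Genes that rose and genes that fell differed in how much of their RNA was already labelled. The 230 well covered genes that were higher at 120 min had a median NTR of 0.0798 at 90 min and 0.109 at 120 min, against 0.43 and 0.628 for the 210 that were lower and 0.243 and 0.351 for all 8999 genes. Their transcripts were also unlike in length. The median transcript length was 1348 bases for higher, 5246 for lower and 3358 for all genes, and the median 3′ UTR was 403, 2067 and 1318 bases. The U content had medians of 23.7%, 26.6% and 24.7%. Lengths and base content were taken from GENCODE M21 on GRCm38, not from the build used for the counts.

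Across the 8999 genes the log2 count change had a Spearman rho of -0.53 with the NTR at 90 min (-0.454 for 120 min A and -0.498 for 120 min B against the mean of the 90 min libraries). Genes share these 4 libraries and are not independent replicates, and the count change and the NTR both use the 90 min libraries. With the NTR of the 60 min libraries in its place rho was -0.495. The relation was not a straight line. In the lowest decile of NTR, up to 0.0943, the median log2 change was 0.095 in 120 min A and 0.12 in 120 min B, and 151 genes were higher and 0 lower. The lowest medians lay in the eighth and ninth deciles, where 120 genes were lower and 2 higher. In the highest decile, with an NTR from 0.647 to 1.0, the medians were -0.042 and -0.055, and 18 genes were lower and 6 higher.

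**Figure D1:**
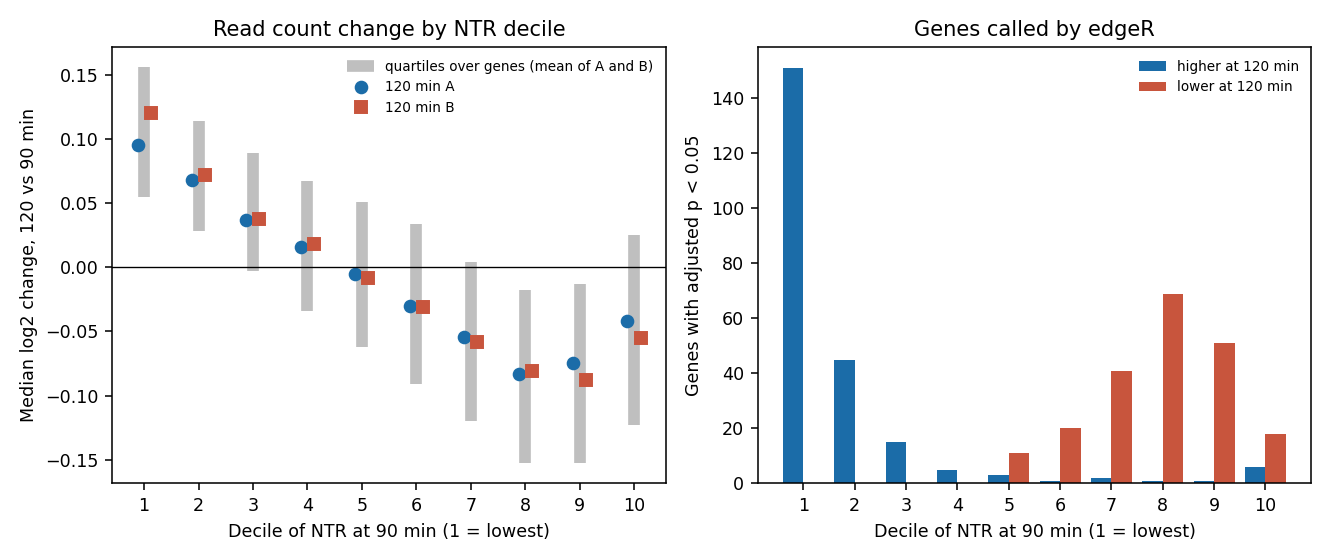
Read count change from 90 to 120 min by decile of the NTR at 90 min, for 8999 genes. Left, median log2 change of each 120 min library against the mean of the 90 min libraries (points and squares), with quartiles over genes (grey bars); right, number of genes with an edgeR adjusted p below 0.05 in each direction. The median falls from about 0.1 in the first decile (0.095 and 0.12) to -0.083 and -0.081 in the eighth and is nearer 0 in the last (-0.042 and -0.055).

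Multiplying CPM by the NTR and by its complement splits each level into a labelled and an unlabelled part. In all 8999 genes the labelled part was a median 1.39 times as high at 120 as at 90 min, and the unlabelled part 0.85 times. Among the higher genes both parts were larger at 120 min, with median ratios of 1.53 (quartiles 1.45 and 1.63) for the labelled and 1.08 (1.06 and 1.11) for the unlabelled part. Among the lower genes the labelled part was still larger, a median 1.24 times, while the unlabelled part was 0.55 times its level at 90 min (quartiles 0.43 and 0.64). These ratios describe genes that were selected on their total count, and they were not tested.

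Among the 8999 well covered genes (mean count of 100 or more), long non-coding RNAs had the 3 largest rises. Malat1, an abundant RNA retained in nuclear speckles (ENSMUSG00000092341, chromosome 19, 5795690 to 5802672, minus strand in GRCm38), had 1848 and 2321 CPM at 90 min and 3113 and 3312 CPM at 120 min. It rose by 0.62 ± 0.0804 on the log2 scale (SE, edgeR adjusted p = 7.6e-06), and by between 0.47 and 0.80 when 1 of the 4 libraries was left out. The liver-secreted transcripts were likewise higher in both 120 min libraries, and any part of RNA from other samples in the rise of Malat1 was not tested. The level of Malat1 lay between 998 and 1839 CPM in the 15, 30 and 60 min libraries, all below 90 min. At 60 min it was 1839 CPM in A, close to the 1848 CPM of 90 min A, and 1350 CPM in B. Its change from 60 to 90 min was 0.39 (edgeR adjusted p = 0.0288). The NTR of Malat1 was 0.233 and 0.176 at 90 min and 0.225 and 0.225 at 120 min, so its labelled part (430 and 409 CPM, then 699 and 745) and its unlabelled part (1420 and 1910, then 2410 and 2570) were both larger at 120 min. Kcnq1ot1, an imprinted RNA that runs antisense to Kcnq1, had 31.8 and 30.9 CPM at 90 min and 46.4 and 47.2 at 120 min, a rise of 0.58 ± 0.101 (adjusted p = 0.000891). The use of strand in counting is unknown here, so its reads and those of Kcnq1 may not be separated. Unlike Malat1, Kcnq1ot1 was mostly labelled, with an NTR of 0.881 and 0.829 and then 0.949 and 0.956. Lncpint, a p53-inducible RNA, had 10.3 and 8.07 CPM and then 13.7 in both libraries (0.58 ± 0.157, adjusted p = 0.0307), and was not called without 90 min B (adjusted p = 0.28), 120 min A (0.104) or 120 min B (0.2).

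Among 10 nuclear long non-coding RNAs tested, 4 rose and 0 fell (40.0% called, against 3.85% over all genes). The fourth to rise was the imprinted Meg3 (0.23, edgeR adjusted p = 0.0226). The list had a median log2 fold change of 0.26 against 0.00 over all genes tested. Neat1, the scaffold of paraspeckles, was at 0.11 (edgeR adjusted p = 0.418). At 60 min Kcnq1ot1 had 28.4 CPM in A and 17.8 in B, and Lncpint 9.67 and 6.0. Their replicates thus differed at that time, as those of Malat1 did. The count of calls in this list was 3 without 90 min A, 90 min B or 120 min A and 2 without 120 min B.

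Several targets of p53, the transcription factor activated by DNA damage and other stress, were higher at 120 min. Of 16 tested, 4 rose (Cdkn1a, Mdm2, Ccng1 and Bax) and 0 fell, with a list median of 0.10. Cdkn1a encodes the cyclin-dependent kinase inhibitor p21. It had 109 CPM in both 90 min libraries and 146 and 140 CPM at 120 min, the largest called change of the list (0.40 ± 0.0489, edgeR adjusted p = 5.05e-06). Its level had been between 96.0 and 117 CPM in the libraries from 15 to 60 min, so the 120 min libraries stood above all others. Mdm2, the ubiquitin ligase that degrades p53, had 86.2 and 88.2 CPM and then 113 and 107 CPM (0.33 ± 0.0545, adjusted p = 0.000348), and Ccng1, cyclin G1, had 217 and 236 and then 263 and 260 CPM (0.21 ± 0.0425, adjusted p = 0.00411). The 120 min libraries of all these genes were above the 90 min libraries. Bax, a promoter of apoptosis, rose by 0.17 (adjusted p = 0.0284).

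Cdkn1a and Mdm2 were nearly all labelled RNA by 120 min. The labelled part of Cdkn1a was 93.5 and 84.9 CPM at 90 min and 138 CPM in both 120 min libraries, while its unlabelled part went from 15.2 and 23.7 to 8.55 and 1.74 CPM. In Mdm2 the labelled part went from 66.6 and 64.0 to 110 and 102 CPM and the unlabelled part from 19.5 and 24.2 to 3.49 and 4.88 CPM. The rest of the list did not pass: Trp53inp1 was at 0.49 (adjusted p = 0.0589), Btg2 at 0.47 (0.0756), Fas, a death receptor with few reads here, at -1.08 (0.267) and Sesn1 at -0.21 (0.425). With each library left out in turn 3 of the 16 targets were called, and Ccng1 was not called without 90 min A (0.15, adjusted p = 0.161).

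After these RNAs and Cdkn1a, the largest rises among well covered genes were of 0.36 to 0.45 on the log2 scale. They were Sfi1 (a centrosome protein, 0.45), Cox19 (a copper chaperone for cytochrome c oxidase, 0.44), Sod3 (extracellular superoxide dismutase, 0.43), Rnaseh2c (a subunit of ribonuclease H2, 0.41), Cyp39a1 (an oxysterol hydroxylase, 0.38), Chchd1 and Mrpl34 (both of the mitochondrial ribosome, 0.37 each), and Ddit4 (an inhibitor of mTORC1 signalling, 0.36). Their edgeR adjusted p-values lay between 0.0208 and 0.0497. The weakest was that of Cyp39a1. None of these 8 was called in all 4 fits that left out a library. Of the 12 largest rises, 5 were called without 90 min A, 5 without 90 min B, 6 without 120 min A and 3 without 120 min B, the last being Malat1, Kcnq1ot1 and Cdkn1a. Sod3 was at 0.64 without 90 min A and 0.24 without 90 min B, Ddit4 at 0.23 without 90 min A and Chchd1 at 0.21 without 120 min B.

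Among the well covered genes, Rps6ka5, Mios and Ireb2 had the largest falls. Ireb2 encodes an iron regulatory protein that binds iron-responsive elements in mRNAs (ENSMUSG00000032293, chromosome 9, 54863789 to 54912530, plus strand in GRCm38). It had 87.5 and 86.4 CPM at 90 min and 58.3 and 65.7 CPM at 120 min (-0.48 ± 0.0609, edgeR adjusted p = 6.08e-06). In the libraries from 15 to 60 min its level was between 90.0 and 105 CPM, so both late times were below the early ones and 120 min was the lowest. The labelled part of Ireb2 was 45.2 and 39.8 CPM at 90 min and 40.9 and 47.9 at 120 min, ranges that overlapped. The unlabelled part was 42.3 and 46.6 CPM and then 17.4 and 17.8 CPM. Mios, a subunit of the GATOR2 complex of amino acid sensing, showed the same division. Its CPM was 26.2 and 28.1 and then 18.4 and 19.4 (-0.52 ± 0.0942, adjusted p = 0.00127), with a labelled part of 11.9 and 14.9 and then 13.9 and 14.0 CPM, and an unlabelled part of 14.3 and 13.2 and then 4.53 and 5.35 CPM. Kctd9, an adaptor of cullin 3 ubiquitin ligases, had 56.4 and 53.7 CPM and then 39.9 and 44.1 CPM (-0.39 ± 0.0724, adjusted p = 0.00186).

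Ireb2, Mios and Kctd9 were the 3 of the 12 largest falls that were called in every fit without 1 library. The others were Rps6ka5 (the kinase MSK1, -0.52), Tab3 (a partner of the kinase TAK1, -0.44), Lin9 (of the DREAM complex that controls cell cycle genes, -0.41), Ighmbp2 (a helicase, -0.40), Has2 (hyaluronan synthase, -0.40), Uvssa (transcription-coupled repair, -0.40), Rad17 (the checkpoint clamp loader, -0.40), Gorab (a Golgi protein, -0.39) and Cnot6l (a deadenylase, -0.38). Their edgeR adjusted p-values lay between 0.00661 (Gorab) and 0.0451 (Has2). Without 90 min A 5 of the 12 were called, without 90 min B 5, without 120 min A 3 and without 120 min B 5. Rps6ka5 was at -0.27 without 90 min B and -0.73 without 90 min A.

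**Figure D2:**
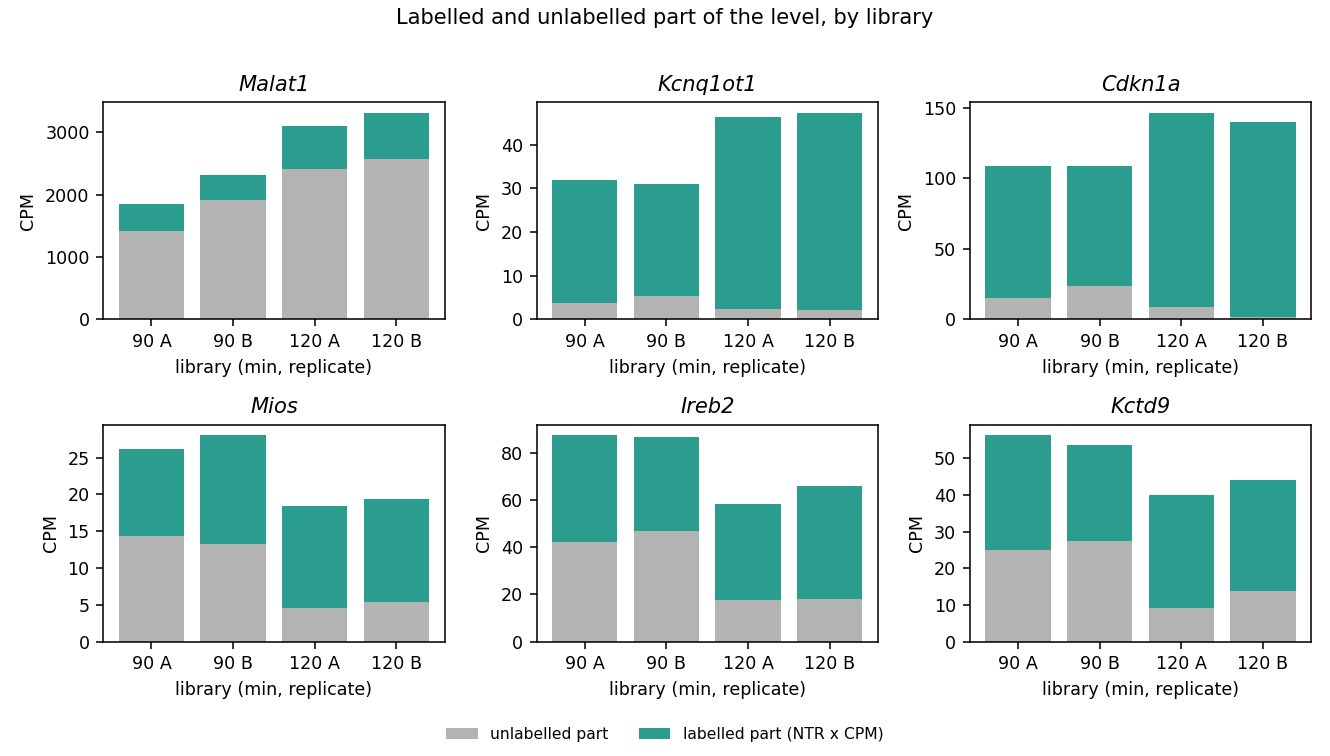
CPM of Malat1, Kcnq1ot1, Cdkn1a, Mios, Ireb2 and Kctd9 in each 90 and 120 min library, split into an unlabelled part (grey) and a labelled part (green, NTR times CPM). In Mios and Ireb2 the green part is of like height at both times while the grey part shrinks, and in Malat1 both parts are taller at 120 min.

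Genes of the ribosome and the respiratory chain made up many of the rises. Of 80 cytosolic ribosomal protein genes tested, 50 rose and 0 fell (62.5% called, against 3.85% over all genes). Their changes ran from 0.00 to 0.29, with a median of 0.13 against 0.00 over all genes. Their median NTR was 0.0857 at 90 min and 0.117 at 120 min. Rps21, of the small subunit, had 323 and 339 CPM and then 390 and 419 CPM (0.29 ± 0.0410, edgeR adjusted p = 3.32e-05). Rpl39, of the large subunit, had 296 and 292 CPM and then 349 and 369 CPM (0.29 ± 0.0398, adjusted p = 2.32e-05). In both genes the 120 min libraries stood above the 90 min libraries, and both were called with any 1 library left out. The list as a whole was less firm, with 20 called without 90 min A, 14 without 90 min B, 40 without 120 min A and 5 without 120 min B, and 33 under library-size scaling. Ribosomal protein genes have many processed pseudogenes, so the division of reads among copies adds an error not included here.

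Of 77 nuclear-encoded subunits of the respiratory chain, 16 rose, 0 fell and 61 did not pass (20.8% called, against 3.85% over all genes). All 77 changes were positive, from 0.03 to 0.36, with a median of 0.14. Uqcr10, of complex III, had 64.2 and 62.1 CPM at 90 min and 73.9 and 83.2 CPM at 120 min (0.32 ± 0.0618, edgeR adjusted p = 0.00262). Ndufc1 of complex I (0.36, adjusted p = 0.0375) and Atp5k of the ATP synthase (0.31, adjusted p = 0.00904) were next to it, but Ndufc1 was at 0.20 without 90 min A (adjusted p = 0.469) and was called in 1 of the 4 fits without a library, as was Atp5k. The number called was 2 without 90 min A, 6 without 90 min B, 12 without 120 min A and 0 without 120 min B, and 9 under library-size scaling. Of the 75 mitochondrial ribosomal protein genes in the list, 1 rose (Mrpl34) and 0 fell (1.33% called, below the 3.85% over all genes). Chchd1, also of the mitochondrial ribosome, rose by 0.37 but was not in this list. The list had a median of 0.07 and an NTR of 0.186 at 90 min. Of 35 proteasome subunits, 2 rose (5.71%, near the 3.85% over all genes), Psmb5 (0.22, adjusted p = 0.0131) and Psmb1 (0.15, adjusted p = 0.0244), with a median of 0.05. Mrpl34 was called in none of the 4 fits without a library, and both proteasome genes only without 120 min A.

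In the lists of mitosis, DNA replication and DNA repair genes, all called genes were lower. Of 51 mitosis genes, 11 fell (21.6%, against 3.85% over all genes) and 0 rose. The list had a median of -0.09 and an NTR of 0.288 at 90 min and 0.458 at 120 min. G2e3, a ubiquitin ligase (-0.33, edgeR adjusted p = 0.0406), and the mitotic kinesins Kif14 (-0.32, 0.0338) and Kif20b (-0.27, 0.00465) had the largest called falls, followed by Kif11, Aurka, Ect2, Incenp, Ccna2, Ckap5, Mki67 and Top2a (-0.12). Other core members were near 0, among them Cdk1 (-0.02, adjusted p = 0.845), Ccnb2 (-0.01, 0.983) and Cdc20 (0.05, 0.635). With 1 library left out, 2 genes of the list were called lower without 90 min A and 1 without each of the other 3. Of 47 DNA replication genes only Orc2, of the origin recognition complex, was called (-0.24, edgeR adjusted p = 0.00783). That was 2.13%, below the 3.85% over all genes, and the list median was 0.01. Of 46 DNA repair genes 4 fell (8.7%, against 3.85% over all genes). They were the ligase Rad18 (-0.31), the recombination mediator Brca2 (-0.31), the helicase Blm (-0.30) and Rif1 (-0.18), and the list median was -0.02. Without 90 min A or 120 min A 0 repair genes were called, and without 90 min B or 120 min B 1. Orc2 was called without 90 min B and without 120 min A only.

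Of 56 chromatin remodellers and histone methylation enzymes, 4 fell (7.14%, against 3.85% of all genes called) and 0 rose, and the list had a median of -0.11 with an NTR of 0.463 at 90 min and 0.68 at 120 min. These were Suz12, a core subunit of Polycomb repressive complex 2 (-0.24, edgeR adjusted p = 0.00467), the demethylase Kdm5a (-0.22), the remodeller Ino80 (-0.20) and Setd5 (-0.17). Of 51 genes of the mRNA decay machinery, 3 fell (5.88%, near the 3.85% over all genes), all of them subunits of the CCR4-NOT deadenylase: Cnot6l (-0.38), Cnot2 (-0.23, adjusted p = 0.0239) and Cnot1 (-0.17, adjusted p = 0.0071). The list median was -0.04. At most 1 of the chromatin genes and 2 of the decay genes were called lower with any 1 library left out. Without 90 min A, 1 gene of each list was called higher, as was 1 chromatin gene without 120 min B. None of 65 splicing factors was called with edgeR or DESeq2 (median 0.02, 12 with an unadjusted p below 0.05). With edgeR that was 0.0%, against 3.85% over all genes.

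Extracellular matrix genes went both ways. Of 37 tested, 4 rose and 1 fell (13.5% called, against 3.85% over all genes), with a median of 0.08. Decorin (Dcn), a small collagen-binding proteoglycan, had 75.6 and 74.7 CPM and then 94.6 and 92.7 CPM (0.32 ± 0.0617, edgeR adjusted p = 0.00262), and nearly all of it was unlabelled (72.4 and 71.8 CPM, then 90.8 and 90.2). Thrombospondin 2 (Thbs2, 0.20, adjusted p = 0.0108), Col6a1 (0.19) and fibronectin (Fn1, 0.11) also rose. Thrombospondin 1 (Thbs1), an adhesion glycoprotein, fell from 1127 and 1163 to 1015 and 973 CPM (-0.20 ± 0.0341, adjusted p = 0.000442). The paralogues Thbs1 and Thbs2 thus changed in opposite directions. Dcn and Thbs1 were called with any 1 library left out, and Thbs2 in 2 of these 4 fits (0.13 without 90 min A, adjusted p = 0.248).

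The remaining lists had few calls. Among 34 actin cytoskeleton genes Arpc3 (0.18) and Tpm1 (0.14) rose (5.88%, near the 3.85% over all genes). Neither was called under library-size scaling, and Tpm1 was at 0.09 without 90 min A. Among 29 integrated stress response genes 10.3% were called, against 3.85% over all genes. Ddit4 rose, and Chac1, a glutathione-degrading enzyme (-0.29), and Slc3a2, an amino acid transporter subunit (-0.16), fell. Each of these 3 was called in 1 of the 4 fits without a library (Chac1 was at -0.17 without 120 min B and Slc3a2 at -0.08 without 90 min B), and Ddit4 was not called under library-size scaling. Of 25 cytosolic chaperones only Hspa1b rose (0.34, edgeR adjusted p = 0.0352), which is 4.0% and near the 3.85% over all genes. It is nearly identical to Hspa1a, so that reads may be divided between them. Hspa1b was at 0.22 without 90 min B and 0.46 without 90 min A, and was not called under library-size scaling. No gene of glycolysis (17 tested, median 0.09), endoplasmic reticulum chaperones (20, 0.03) or cholesterol synthesis (21, 0.03) was called with edgeR. That was 0.0% of each list, against 3.85% over all genes, and lists of this size can hold 0 calls at that share. Unadjusted p-values below 0.05 were found for 10, 7 and 8 of them, and DESeq2 called 2 glycolysis genes and 0 of the others. The reference transcripts Gapdh (0.08, adjusted p = 0.167), Actb (0.02, 0.822) and Eef1a1 (0.05, 0.384) were not called either.

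**Figure D3:**
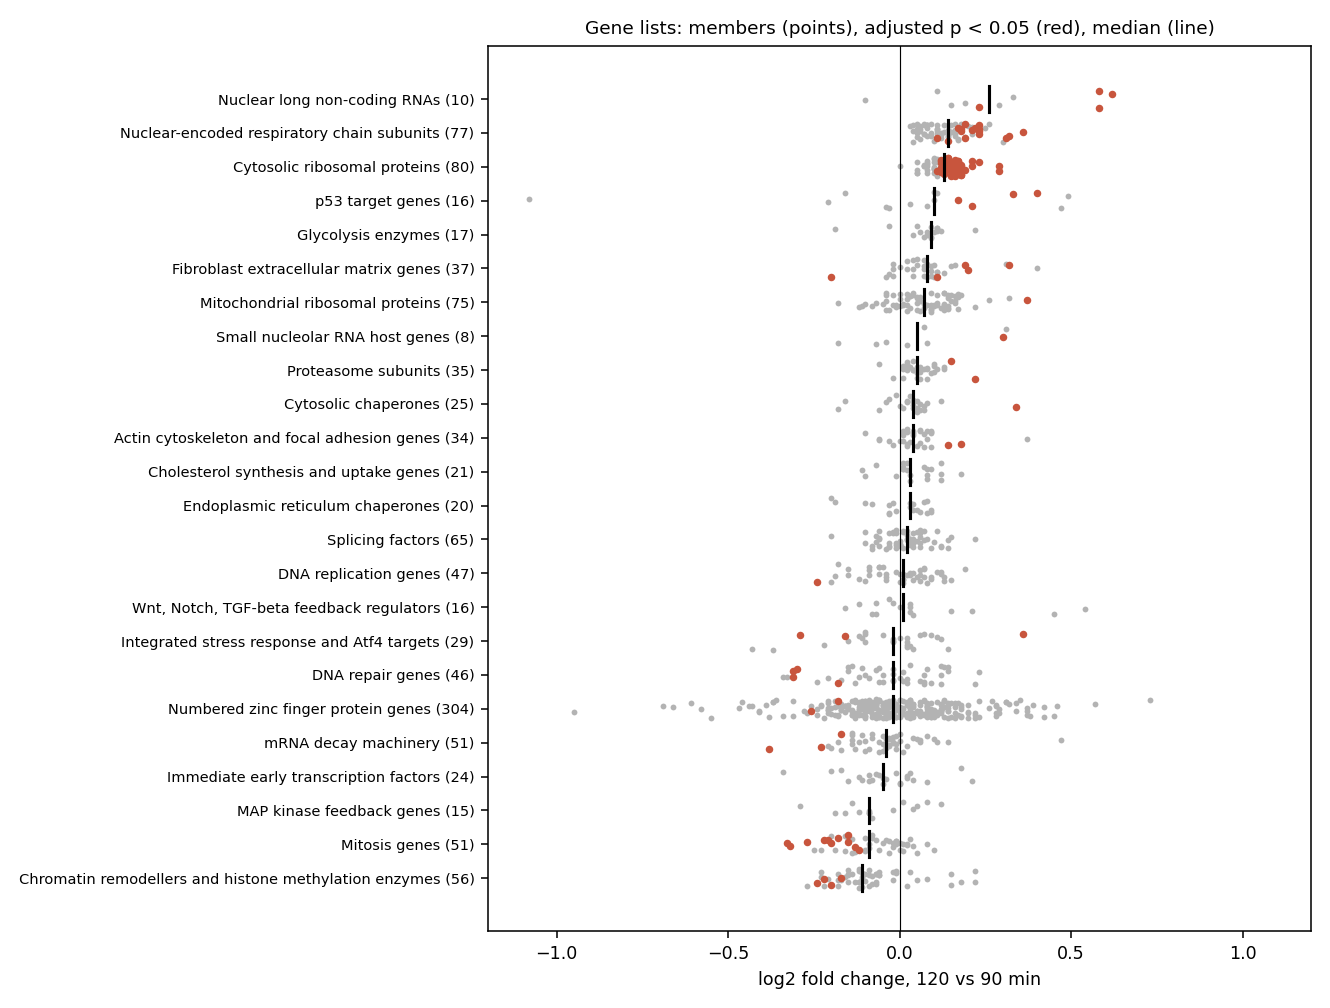
Log2 fold change from 90 to 120 min of the tested members of each gene list (points, number tested in brackets), with members called by edgeR in red and the list median as a black line. The medians run from -0.11 (chromatin remodellers) to 0.26 (nuclear long non-coding RNAs), and respiratory chain subunits are all to the right of 0.

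Genes whose NTR was already saturated at 90 min formed a small set. An NTR of at least 0.90 in both 90 min libraries was found for 119 of 8999 genes (1.32%). At constant synthesis and decay this limit corresponds to a half-life of 27.1 min. Of the 119, 27 had also reached it in both 60 min libraries, 116 were at or above it in both 120 min libraries, and 22 were at exactly 1 in both 90 min libraries. A further 416 genes reached it by 120 min, for 532 in all. The limit fell in a continuous range. The lower of the 2 values was 0.9 for Ctu1 and Fzd5 and 0.901 for Foxc2 just inside, and 0.899 for Zbtb6 and Dusp10 and 0.897 for Zfp719 just outside. The 119 had a median NTR of 0.411 after 30 min, 0.843 after 60 min, 0.975 after 90 min and 1.0 after 120 min. The medians of all 8999 genes at these times were 0.0522, 0.154, 0.243 and 0.351.

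Among the 119 were a prostaglandin synthase, matricellular proteins, transcription factors and feedback inhibitors. The 10 with most reads were Ptgs2 (cyclooxygenase 2), Sgk1 (a serum- and glucocorticoid-regulated kinase), Ccn2 and Ccn1 (matricellular proteins known as Yap targets), Amotl2 (a Hippo pathway scaffold), Fosl2 (an AP-1 subunit), Dusp4 (a MAP kinase phosphatase), Plk2 (a polo-like kinase), Klf6 (a zinc finger factor) and Ier3 (an immediate early gene). They did not reach saturation together. Ier3 had an NTR of 0.724 and 0.676 at 30 min and 1.0 and 0.981 at 60 min. Dusp4 was the slowest of the 10, with 0.282 and 0.329 at 30 min, values of 0.697 and 0.733 in the 60 min libraries and of 0.938 and 0.901 in the 90 min libraries. Dusp1, a phosphatase that switches off MAP kinases, was faster than all 10 at 30 min, with 0.892 and 0.92, and was at 1 in both libraries from 60 min on. Myc was at 0.605 and 0.634 at 30 min and at 1 in both 90 min libraries.

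**Figure D4:**
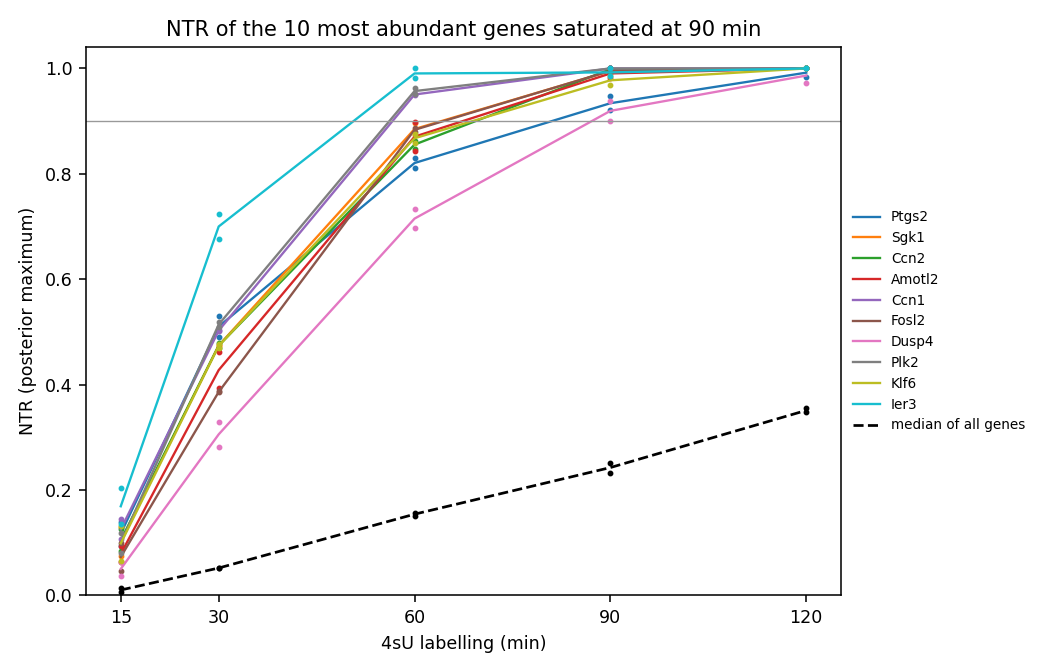
NTR against labelling time for the 10 most abundant genes saturated at 90 min (coloured lines through the mean of 2 libraries, points for each library) and the median of the 8999 genes (dashed). The grey line marks the limit of 0.90. All 10 genes are above it in both 90 min libraries, where the overall medians are 0.252 and 0.233.

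By function, the immediate early transcription factors held 10 saturated genes among 24 and the MAP kinase feedback genes 5 among 15, with median NTRs at 90 min of 0.917 and 0.92. Over all 8999 well covered genes 1.32% were saturated. The 24 and 15 are all tested members, and any with a mean count below 100 could not be counted as saturated. Numbered zinc finger protein genes supplied 12 of the 119 (10.1%, against 1.92% of all 8999 genes), and the median NTR of the 304 tested was 0.735. In that family 0 rose, and the 2 called falls both carried the name Zfp91 (-0.26 and -0.18), under separate identifiers whose reads may be shared. That was 0.658% of the 304 called, below the 3.85% over all genes. The list median was -0.02. Neither identifier was called without 120 min A.

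Short-lived RNAs often carry AU-rich elements in the 3′ UTR, which recruit decay proteins such as those of the Zfp36 family. The 9-base AU-rich core TTATTTATT, searched on the transcript strand in the last 300 bases of the 3′ UTR, was found in 12 of 111 saturated genes with such a window (10.8%) and in 172 of 7765 of all genes (2.22%). The shorter ATTTA, which the 9-base core contains, was found in 62.2% and 45.0%. A match is a description of the letters only. The following 8 sites of 30 bases, with the core in capitals, show the motif in saturated regulators of different function: Plk2, Dusp1, the cytokines Clcf1 and Lif, the G protein regulator Rgs16, the NF-kB inhibitor Nfkbia, the decay factor Zfp36 itself and the chemokine Cxcl1. They are written 5′ to 3′ on the transcript strand in GRCm38.
Plk2, chr13:110400734-110400763, plus strand: aataaactttTTATTTATTacagccccaag
Dusp1, chr17:26505869-26505898, minus strand: gtttttacctTTATTTATTtttgtgtaggt
Clcf1, chr19:4223398-4223427, plus strand: gtattaatatTTATTTATTtggagatgtta
Lif, chr11:4272402-4272431, plus strand: cagattatttTTATTTATTcaatgtcatat
Rgs16, chr1:153745169-153745198, plus strand: gctgctattgTTATTTATTgtggtttgttt
Nfkbia, chr12:55489607-55489636, minus strand: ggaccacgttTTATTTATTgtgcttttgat
Zfp36, chr7:28376950-28376979, minus strand: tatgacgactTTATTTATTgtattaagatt
Cxcl1, chr5:90892908-90892937, plus strand: agaatgtcagTTATTTATTgaaagtcgtct

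As members of the saturated set, all 8 had by definition an NTR of at least 0.90 in both 90 min libraries. Their lowest value was 0.913, of Clcf1 in replicate B. At 120 min Cxcl1 was at 0.85 in replicate A. None of the 8 was called in read count with edgeR, with log2 fold changes from -0.08 (Cxcl1, adjusted p = 0.829) to 0.18 (Nfkbia, adjusted p = 0.287).

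Read counts of the saturated genes were spread around 0. Their median log2 fold change was -0.01 (quartiles -0.08 and 0.06), and 6 of the 119 were called (5.04%, against 4.89% of all well covered genes). The labelled part was a median 1.02 times its level at 90 min (quartiles 0.96 and 1.08), against 1.39 in all genes. Those higher were Ddit4 and Snhg12. Of 8 host genes of small nucleolar RNAs tested, only Snhg12 was called (12.5%, against 3.85% over all genes). Ddit4 had 19.5 and 23.9 CPM and then 26.9 and 28.8 CPM (0.36 ± 0.102, edgeR adjusted p = 0.0352). Snhg12 had 39.8 and 35.9 CPM and then 46.7 in both libraries (0.30 ± 0.0777, edgeR adjusted p = 0.0223). Each was called in 1 of the 4 fits without a library. Those lower were Pde4b, a cyclic AMP phosphodiesterase (-0.28), Chac1 (-0.29), Ccn2 and Sgk1.

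Sgk1 had 571 and 582 CPM at 90 min and 493 and 502 CPM at 120 min (-0.21 ± 0.0398, edgeR adjusted p = 0.0018), after 838 and 862 CPM at 15 min. Its level was lower at each later time. Ccn2 had 461 and 503 CPM at 90 min and 410 and 405 CPM at 120 min (-0.24 ± 0.0401, adjusted p = 0.000419), and was called with any 1 library left out, as Sgk1 was. The other matricellular gene, Ccn1, had 304 and 251 CPM and then 289 and 244 CPM, ranges that overlapped (-0.06, adjusted p = 0.692).

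None of the immediate early transcription factors was called with edgeR (24 tested, 0 rose and 0 fell, median -0.05). Nor was any MAP kinase feedback gene (15 tested, median -0.09) or feedback regulator of growth factor, Wnt, Notch and TGF-beta signalling (16 tested, median 0.01). Each share was 0.0%, against 3.85% over all genes, and lists of this size can hold 0 calls at that share. In each of these lists 3 genes had an unadjusted p below 0.05 and DESeq2 called 0. Jun was at 0.00 ± 0.0650 (adjusted p = 0.985), Ier2 at 0.04 ± 0.0922 (0.897), Myc at -0.07 ± 0.0622 (0.592) and Junb at 0.21 ± 0.0854 (0.169). Fos, with a mean of 22.5 reads, was at -0.34 ± 0.303 (0.619), too few reads for a change of this size to be detectable. Without 90 min A, 1 of the 24 genes was called lower and 1 higher, Ier3 (0.18 with all libraries, 0.44 without 90 min A with an adjusted p of 0.00232, and -0.05 without 90 min B).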

How the data were processed

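RNA of NIH-3T3 cells labelled with 4sU was read by SLAM-seq. The authors deposited 1 table for the series. Its estimated counts per gene and library are the authors' read counts, not scaled between libraries, and they were rounded for testing because 20.4% of them in the labelled libraries differed from a whole number by more than 1e-06. Per the file headers, the NTR was deposited as a fraction in 4 forms, the posterior maximum used here, the posterior mean, and the quantiles at 0.05 and 0.95. The deposited alpha and beta columns, each a score without fixed range, were not used. The deposited gene length entered only as a covariate of the partial rho. The submitters' processing notes name cutadapt, Bowtie2 2.3.0 and STAR 2.7.10b without their roles. Counting tool, genome build, annotation and use of strand: not given in the sources used here. Reads with many conversions can be harder to align, which could lower counts and NTR of labelled genes. This was not tested.

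The count test was edgeR 4.0.16 under R 4.3.3 (filterByExpr, TMM, quasi-likelihood), in a fit over the 10 labelled libraries, so that 5 groups shared the spread, with Benjamini-Hochberg adjustment over all genes and a threshold of 0.05. The common biological coefficient of variation was 2.54% and TMM factors ran from 0.974 to 1.02. Labelling rates were tested with limma 3.58.1 over the 60, 90 and 120 min libraries for genes with an NTR above 0.01 and below 0.98. The rho used log2 of CPM plus a pseudocount of 1. DESeq2 1.42.0 was the alternative tool. Other values and figures were made in Python 3.11.15 with matplotlib 3.10.9, scipy 1.17.1, pandas 2.3.3 and numpy 2.4.6. Both tests were first tested on simulated data.

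Transcript lengths come from GENCODE M21, in which 17396 of 17419 identifiers were found. Genes named are the 12 largest rises and falls that passed, had a mean count of 100 or more and did not overlap between groups, the 10 saturated genes with most reads, up to 3 called members of each list (2 with most reads where none passed) and 8 reference genes. Other names were chosen after their values were seen. The members and lists were chosen with earlier results of these data known.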

Additional observations from a re-analysis of the deposited data

How the results depend on the processing

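With 2 libraries per group the count of changed genes was the least stable result. It was 444 with edgeR, between 56 and 240 with 1 of the 4 libraries left out, 253 (135 higher, 118 lower) when only the 90 and 120 min libraries were fitted and 256 (150 higher, 106 lower) with DESeq2, which gave no adjusted p for 8491 genes. With DESeq2, 8 respiratory chain, 8 mitosis and 2 chromatin genes and 1 each of nuclear long non-coding RNAs, DNA repair and mRNA decay genes were called, and 0 of the integrated stress response, cytosolic chaperone, mitochondrial ribosomal protein and small nucleolar RNA host lists. The labels do not say whether replicate letters pair the libraries. The deviations of A libraries correlated at 0.00618 to 0.059 between groups, values that were low but all positive. With a replicate block 582 genes were called, all 444 among them, and 0 in labelling rate. Labelling rate gave 0 genes in every fit with a library left out, 2 with the posterior mean, 34 with only the 90 and 120 min libraries and 5 at a mean count of at least 1000. The saturated genes numbered 316 at an NTR of at least 0.80, 65 at 0.95, 27 when the 0.05 quantile had to reach 0.90, 16 at a mean count of at least 1000, and 160 to 192 from 1 library at 90 min. At a mean count of at least 1000 the median NTR was 0.179 at 90 min and 0.256 at 120 min. The rho of count change with NTR was -0.495 with the NTR of 60 min, -0.731 at a mean count of at least 1000, -0.453 given gene length and mean count, and -0.506 to -0.438 with 1 library left out. No named gene that was called reversed, whereas named genes that were not called, such as Ptgs2, Ccn1, Ier3 and Myc, changed sign with 1 library left out. Except where fewer libraries or genes were used, the cause of these shifts was not tested.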

Other observations

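Only 4 of the 444 called genes had a mean count below 100, and all of them are named here after their values were seen: Alb, Gm8251 (1.21), Foxl1 (0.71) and Tmem67 (-0.78). Alb encodes serum albumin, a protein secreted by the liver. It had 0 reads in both 90 min libraries and 25 and 42 reads in the 120 min libraries, and 1 read in the 6 libraries of 15, 30 and 60 min (edgeR adjusted p = 5.05e-06). The NTR of Alb was 0.0 in 120 min A and 0.0286 in 120 min B, with upper 0.95 quantiles of 0.1694 and 0.1703. A list of liver-secreted proteins, chosen after this was seen, had 21 genes in the table. Together they had 4 and 5 reads at 90 min and 64 and 119 reads at 120 min, against 7 to 13 reads in the earlier libraries, and 4 of the 21 had any read at 90 min and all 21 at 120 min. Whether RNA or reads of other samples entered the 120 min libraries, and any part of this in the rises at 120 min, was not tested.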
